A study of Homo sapiens with 5 samples.

Results

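Interferon-stimulated genes were examined in MCF10A SAM cells with and without activation of JUN. The set was a fixed list of 43 gene symbols, matched through Entrez identifiers to the rows of a count table of 23459 genes, and all 43 were found. MCF10A is an immortalised, non-tumorigenic human mammary epithelial line. SAM cells are clonally picked derivatives that carry dCas9-VP64 and MCP-p65-HSF1, activators that a guide RNA brings to a chosen promoter. QuantSeq 3 prime end libraries were compared between cells that had received a guide without a human target (NTC, replicates 1, 2 and 3) and cells infected with sgJUN#1, which is directed at the JUN promoter (replicates 1 and 2). Both groups therefore carried the activator proteins and a guide vector, and both grew with horse serum, insulin, hydrocortisone, cholera toxin and EGF. No library of uninfected or interferon-treated cells was analysed here. The study calls its replicates biological, but the labels do not say that they were separate cultures, and the p-values measure the spread between these libraries, which may be technical.

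Interferons are secreted proteins that cells release after sensing viral nucleic acid. Type I and type III interferons act through receptors, the kinases JAK1 and TYK2 and a factor complex that includes STAT2 and IRF9 and binds a promoter element called the ISRE (interferon-stimulated response element). The induced genes encode proteins that block viral entry, translation, replication and release, and several of them also feed back on the pathway. JUN belongs to AP-1, a family of dimeric factors that bind another short element and take part in the induction of the interferon beta gene.

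Of the 43 genes 33 had enough counts to be tested, and none of them passed the threshold. SAMD9L stood furthest apart, 3.69-fold higher in sgJUN#1 (log2 fold change 1.88, SE 0.458, n = 3 and 2 libraries), and its neighbour SAMD9 was 1.58-fold higher. SAMD9L had enough counts for the test only through the sgJUN#1 libraries. USP18, IFIH1, GBP1 and GBP2 had higher means in sgJUN#1, whereas IRF9, BST2, LGALS3BP and IFIT1 had lower ones. The most abundant members, IFITM2 and IFITM3, were at nearly the same mean level in both groups. Of the genes used as reporters of an interferon response, ISG15, MX1, RSAD2 and OASL had at most 7 counts in any library. Others were well detected, among them IFI44L with 102 to 263 counts and IFIT3 with 60 to 112. Levels are given as CPM, the counts of a gene relative to the scaled library total. In 3 prime end libraries this scale depends little on transcript length. In bulk RNA, a change in the number of expressing cells and a change in the RNA per cell cannot be told apart.

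Library totals lay between 2455627 and 4988062 counts. The members took from 0.110% to 0.151% of them, and 3 counts, the limit used for genes without reads, stood for 0.601 to 1.22 CPM. This floor covers counting error only, whereas the intervals of fold changes given later also take in the spread between libraries. Of 10 epithelial markers, 9 were detected in every library and KRT17 had 0 counts in NTC replicate 1, while their sum ran from 1033 to 1833 CPM in NTC and from 1154 to 2474 CPM in sgJUN#1. KRT14 and TP63, which mark basal cells, stayed at or under 3.26 and 7.51 CPM. The sums of 5 leukocyte, 3 endothelial and 4 fibroblast markers reached at most 29.7, 10.99 and 90.3 CPM, with CD3E at 0 in all libraries and PTPRC at most 2.22 CPM. The groups overlapped in each of these sums. Single markers did separate them, with KRT17, EPCAM, CD68 and COL1A1 higher and KRT14 and ITGB4 lower in both sgJUN#1 libraries. Over all tested genes 25.0% did not overlap, and COL1A1 had too few counts to be tested. EPCAM was 5.42-fold higher, with an adjusted p-value of 0.210 with edgeR and 3.16e-05 with DESeq2. The part of these markers in the results was not tested.

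JUN was examined first as a check of the labels. The NTC libraries, in the order of their replicate numbers, had 25.0, 36.2 and 9.32 CPM, as against 171.5 and 265.5 CPM in sgJUN#1. The groups were well apart, although the edgeR adjusted p-value was 0.0733. Values of other genes are given in the same order.

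To show the elements through which these genes are known to be induced, promoter windows were searched for letter motifs. Windows of 250 bases before to 50 bases after a transcription start were available from RefSeq (build GRCh38.p14) for 34 members. The ISRE was searched as GAAA, any 2 bases and GAAA, the AP-1 element as TGANTCA and the interferon-gamma element GAS as TTCNNNGAA, each on both strands. The ISRE letters were found in 28 of 45 member windows (62.2%), as against 3.57% of all 35116 windows. The AP-1 letters were found in 4 member windows (8.89%), near the 7.71% of all windows, and the GAS letters in 11 (24.4%) against 7.66%. Several of the GAS matches of members shared bases with an ISRE match, so the 24.4% does not count separate elements. The stretches below are the 160 bases before the start of 6 genes, shown because they include the member that stood furthest apart and its neighbour, the RNA sensor IFIH1, a lower member in BST2, and the core reporters IFIT1 and ISG15. Capitals mark ISRE letters, except in SAMD9L, where they mark AP-1 letters.
SAMD9L (chr7:93148386-93148545, minus strand): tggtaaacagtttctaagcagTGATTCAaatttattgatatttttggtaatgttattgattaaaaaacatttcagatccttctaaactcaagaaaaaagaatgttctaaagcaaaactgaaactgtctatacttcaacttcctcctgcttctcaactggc
SAMD9 (chr7:93117980-93118139, minus strand): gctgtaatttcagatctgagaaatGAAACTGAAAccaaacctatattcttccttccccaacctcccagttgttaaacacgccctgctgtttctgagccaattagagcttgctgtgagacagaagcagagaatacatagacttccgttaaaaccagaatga
IFIH1 (chr2:162318685-162318844, minus strand): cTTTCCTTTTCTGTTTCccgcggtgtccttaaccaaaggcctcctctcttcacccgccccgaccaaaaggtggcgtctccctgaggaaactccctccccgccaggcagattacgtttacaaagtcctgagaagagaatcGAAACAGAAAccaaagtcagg
IFIT1 (chr10:89392463-89392622, plus strand): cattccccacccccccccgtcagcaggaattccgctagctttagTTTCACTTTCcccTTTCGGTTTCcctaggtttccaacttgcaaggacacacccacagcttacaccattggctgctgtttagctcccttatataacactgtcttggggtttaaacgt
ISG15 (chr1:1013337-1013496, plus strand): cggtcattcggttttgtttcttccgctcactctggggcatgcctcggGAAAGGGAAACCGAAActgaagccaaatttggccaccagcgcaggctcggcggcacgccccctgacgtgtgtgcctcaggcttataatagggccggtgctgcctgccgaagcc
BST2 (chr19:17405631-17405790, minus strand): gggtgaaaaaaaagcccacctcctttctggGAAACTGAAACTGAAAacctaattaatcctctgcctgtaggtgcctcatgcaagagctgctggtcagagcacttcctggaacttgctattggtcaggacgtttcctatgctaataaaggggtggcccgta

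In IFIH1, ISG15 and BST2 a pair of ISRE matches overlapped, and the GAS letters overlapped an ISRE match 136 bases before the start of BST2. GAS letters also overlapped an ISRE match in EPSTI1, IFI27, IFITM1 and MX1. The AP-1 letters of SAMD9L began 139 bases before its start, and the window held no exact match to the ISRE letters. Its printed stretch does hold aaaactgaaa, close to the GAAACTGAAA of SAMD9, but near matches were not searched. The other members with AP-1 letters were IFIT5, ISG20 and MX1. Their log2 fold changes were 0.06 for IFIT5 and -0.43 for ISG20, and MX1 had too few counts to be tested. The 20 tested members with ISRE letters had a median log2 fold change of 0.06 (12 above 0 and 8 below), and the 8 tested members whose windows lacked them had a median of 0.01. A letter match is a description and not a binding site.

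**Figure D1:**
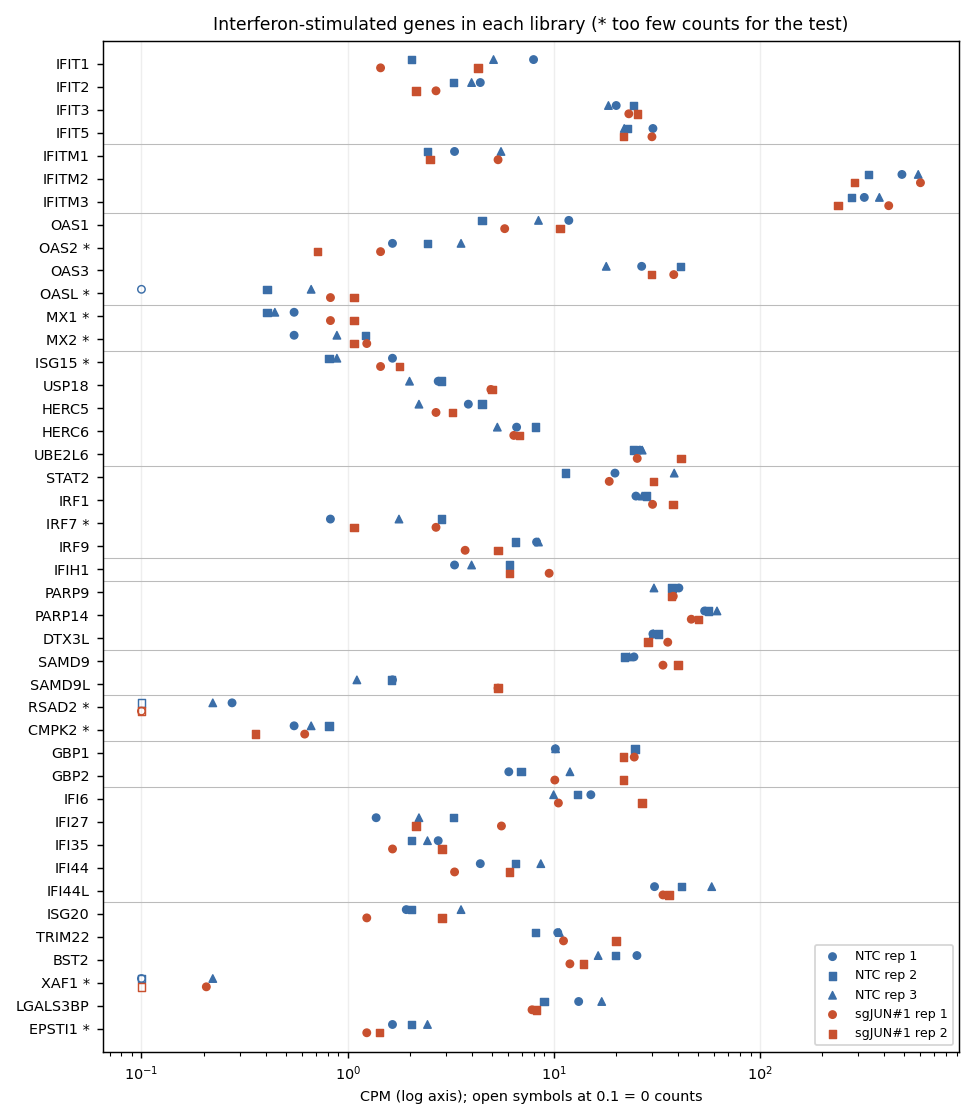
CPM of all 43 genes in each library on a log axis, blue for NTC and orange for sgJUN#1, with circles, squares and triangles for replicates 1, 2 and 3, open symbols for 0 counts and grey lines between groups of related genes. IFITM2 and IFITM3 stand alone above 100 CPM, and the blue and orange symbols of most genes are interleaved.

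The genes differed widely in level. IFITM2 and IFITM3 had a mean over all libraries above 100 CPM, 17 members lay between 10 and 100 CPM and 24 under 10 CPM, of which 6 were under 1 CPM. In total 33 members had enough counts to be tested and 10 did not. Of the 33, SAMD9L passed the expression filter of 2.68 CPM only through the sgJUN#1 libraries and IFIT2 only through the NTC libraries, the groups in which they were higher. IFIT1, IFITM1 and HERC5 were over this level in 2 NTC libraries and 1 sgJUN#1 library, and would not have passed on sgJUN#1 alone.

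With edgeR's quasi-likelihood test over 13616 genes, 0 of the 33 tested members had a Benjamini-Hochberg adjusted p-value under 0.05, where 0.206% of all tested genes did (0.0808% higher and 0.125% lower in sgJUN#1). DESeq2 and limma-voom also called 0. The lowest edgeR adjusted p-value was 0.219. Without adjustment 4 members (12.1%) had a p-value under 0.05, as against 8.38% of all tested genes. These were SAMD9L, SAMD9 and USP18, higher in sgJUN#1 (4.02% of all tested genes), and BST2, lower (4.36%). SAMD9L is counted here although it entered the test through the higher group alone. Over the 33 the median log2 fold change was 0.06, beside -0.01 over all tested genes, with 20 members above 0 and 13 below. Of all tested genes 49.0% were above 0.

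The groups did not overlap in 10 of the 33 (30.3%), beside 25.0% of all tested genes. SAMD9L, SAMD9, USP18, IRF1 and TRIM22 lay above the whole NTC range in both sgJUN#1 libraries (5 of 33, beside 12.2% of all tested genes), and BST2, IRF9, LGALS3BP, IFIT2 and PARP14 lay below it (5 of 33, beside 12.8%). SAMD9L and IFIT2, which entered through the higher group alone, are among these 10. For 11 of the 33 the 95% interval of the log2 fold change lay within -1 to 1 (33.3%, beside 59.4% of all tested genes). For the others a change of 2-fold in at least 1 direction was within the interval. Their SE ran from 0.199 to 0.641 over the 33.

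**Figure D2:**
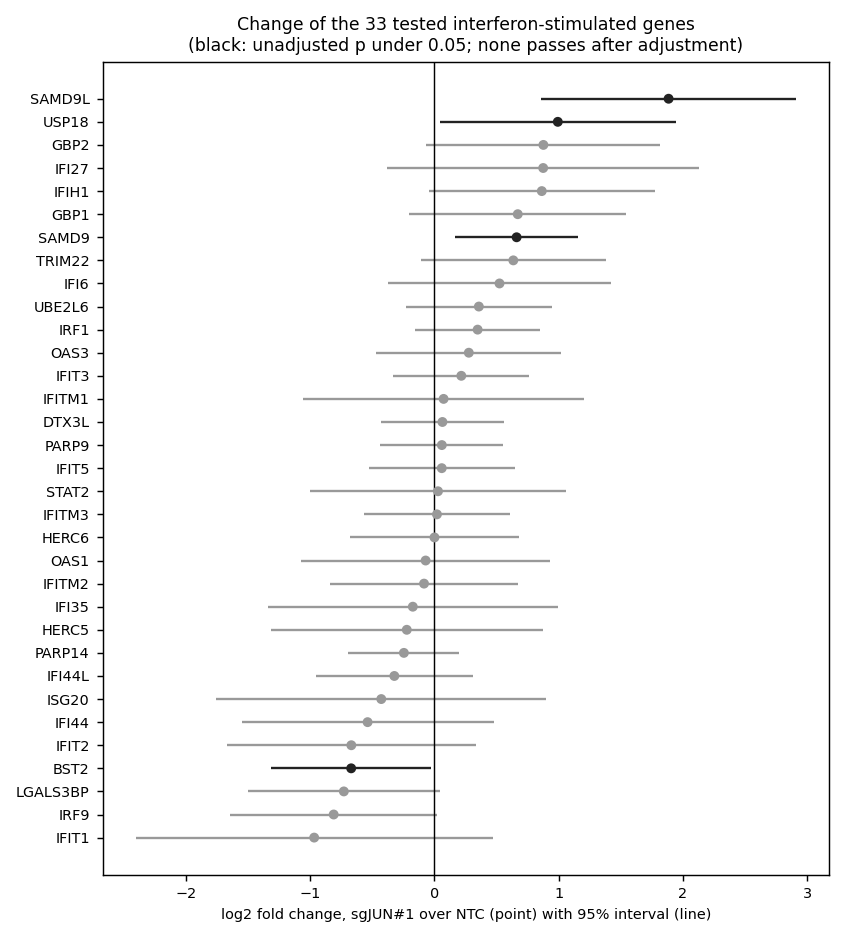
Log2 fold change of sgJUN#1 over NTC for the 33 tested genes (points, horizontal axis) with 95% intervals (lines), in black where the unadjusted p-value was under 0.05. The values run from -0.97 for IFIT1 to 1.88 for SAMD9L, and 4 intervals leave out 0.

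SAMD9L and SAMD9 are adjacent genes on chromosome 7 (GRCh37, 92759369 to 92777698 and 92728826 to 92747336) that encode related cytoplasmic proteins which restrain translation and the growth of poxviruses. SAMD9L held 6, 4 and 5 counts in NTC and 26 and 15 in sgJUN#1, or 1.65, 1.63 and 1.11 CPM against 5.37 CPM in both sgJUN#1 libraries. All NTC libraries were low and both sgJUN#1 libraries high. Its log2 fold change was 1.88 (SE 0.458, 95% interval 0.86 to 2.91, adjusted p-value 0.219 with edgeR). SAMD9L passed the expression filter only through the sgJUN#1 libraries, where it was higher, which limits what these values can show. SAMD9 was more abundant, with 24.5, 22.0 and 23.3 CPM in NTC and 33.8 and 40.1 CPM in sgJUN#1. The NTC libraries lay close together and below both sgJUN#1 libraries, and the log2 fold change was 0.66 (SE 0.220, adjusted p-value 0.435 with edgeR).

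Among the genes of the ISG15 system, ISG15 encodes a ubiquitin-like modifier, UBE2L6 and HERC5 attach it to proteins, and USP18 removes it and also inhibits the type I receptor. USP18 (chromosome 22, 18632885 to 18660164) stood at 2.75, 2.85 and 1.996 CPM in NTC, as against 4.95 and 5.01 CPM in sgJUN#1. The groups did not overlap, but the counts were low, with 7 to 10 in NTC and 24 and 14 in sgJUN#1. The log2 fold change was 0.99 (SE 0.423, adjusted p-value 0.575 with edgeR). ISG15 itself held 6, 2 and 4 counts in NTC and 7 and 5 in sgJUN#1 and was not tested. UBE2L6 had a log2 fold change of 0.36, which rested on 41.5 CPM in sgJUN#1 replicate 2, since replicate 1 at 25.4 CPM was within the NTC range. HERC5 and HERC6 had -0.22 and 0.00, with 2.22 to 8.14 CPM in any library.

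The transcription factors of the pathway did not move in 1 direction. IRF9 (chromosome 14, 24630443 to 24637252), which gives the complex with STAT2 its DNA specificity, had 8.25, 6.51 and 8.43 CPM in NTC and 3.72 and 5.37 CPM in sgJUN#1. Both sgJUN#1 libraries were below all NTC libraries, with a log2 fold change of -0.81 (SE 0.371, adjusted p-value 0.610 with edgeR). Its partner STAT2 was spread more widely in NTC than between the groups. STAT2 stood at 19.8, 11.4 and 38.4 CPM in NTC, a 3.37-fold range, and at 18.6 and 30.4 CPM in sgJUN#1, with a log2 fold change of 0.03 (SE 0.454). IRF1, a factor that interferon gamma induces strongly, had 25.0, 28.1 and 26.8 CPM in NTC and 30.1 and 37.9 CPM in sgJUN#1, with a log2 fold change of 0.35 (SE 0.225). IRF7, which amplifies interferon production, held 3 to 13 counts in any library and was not tested.

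IFIH1 encodes MDA5, a cytoplasmic sensor of long double-stranded RNA. It had 3.30, 6.11 and 3.99 CPM in NTC and 9.49 and 6.08 CPM in sgJUN#1. NTC replicate 2 lay just above sgJUN#1 replicate 2, so that the groups overlapped. The log2 fold change was 0.86 (SE 0.405, adjusted p-value 0.621 with edgeR), and it was 0.48 without sgJUN#1 replicate 1.

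GBP1 and GBP2 encode guanylate-binding GTPases that attack intracellular pathogens and respond above all to interferon gamma. GBP1 stood at 10.2, 24.8 and 10.2 CPM in NTC, as against 24.6 and 21.8 CPM in sgJUN#1. NTC replicate 2 was as high as the sgJUN#1 libraries, and the log2 fold change of 0.67 (SE 0.389) became 1.19 without it, with an edgeR adjusted p-value of 0.201. GBP2 had 6.05, 6.92 and 11.98 CPM in NTC and 10.1 and 21.8 CPM in sgJUN#1, with a log2 fold change of 0.88 (SE 0.419) that became 0.27 without sgJUN#1 replicate 2. Neither gene separated the groups.

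The IFIT proteins bind viral RNA that lacks the cellular cap marks, and their genes lie together on chromosome 10. IFIT1 (91152303 to 91166244) was uneven within both groups, with 7.98, 2.04 and 5.10 CPM in NTC and 1.44 and 4.29 CPM in sgJUN#1. Its log2 fold change was -0.97 (SE 0.641, 95% interval -2.40 to 0.47, adjusted p-value 0.744 with edgeR), and leaving out sgJUN#1 replicate 1 or 2 gave -0.27 or -1.82. IFIT2 had 4.40, 3.26 and 3.99 CPM in NTC and 2.68 and 2.15 CPM in sgJUN#1, which did not overlap (log2 fold change -0.67, SE 0.446). The more abundant IFIT3 and IFIT5 had log2 fold changes of 0.22 and 0.06, with 95% intervals of -0.33 to 0.76 and -0.53 to 0.65.

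The IFITM proteins sit in membranes and hinder the fusion of viruses with the cell. IFITM2 (chromosome 11, 303655 to 309397) carried 488.2, 336.6 and 585.8 CPM in NTC and 600.4 and 286.6 CPM in sgJUN#1. IFITM3 (319676 to 329475) followed it with 320.7, 277.6 and 379.5 CPM in NTC and 421.3 and 239.4 CPM in sgJUN#1. Replicate 2, the library of fewest counts, was the lowest of its group for both genes in NTC and in sgJUN#1. The log2 fold changes were -0.08 (SE 0.333) for IFITM2 and 0.02 (SE 0.263) for IFITM3, with 95% intervals of -0.84 to 0.67 and -0.57 to 0.61. The genes are related copies whose sequences were not compared here, and they may exchange reads. IFITM2 had 1.197 to 1.54 times the counts of IFITM3 in the libraries. IFITM1 was rare in comparison, at 2.44 to 5.55 CPM.

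**Figure D3:**
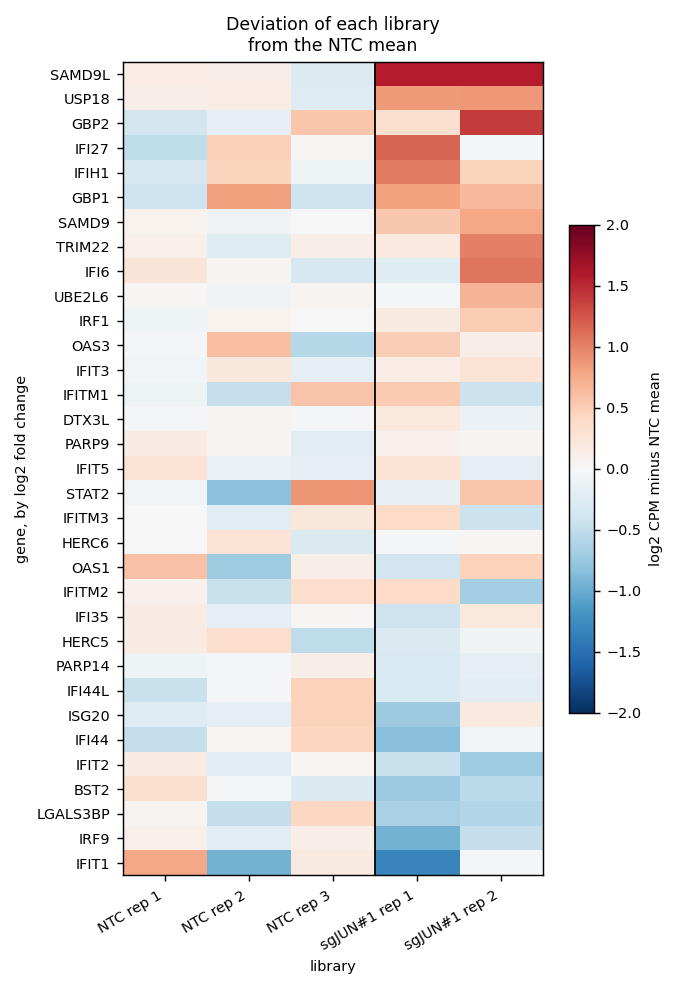
Log2 CPM minus the NTC mean for each of the 33 tested genes (rows, from the highest to the lowest log2 fold change) in each of the 5 libraries (columns), red for higher and blue for lower. SAMD9L and USP18 are red in both sgJUN#1 columns and IRF9, BST2 and LGALS3BP are blue in both, whereas STAT2, OAS1 and IFIT1 differ more among the NTC columns than most genes do between groups.

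Within NTC, IFIT1, STAT2 and OAS1 had the widest ranges of log2 CPM among the tested members. The OAS proteins make the second messenger that activates RNase L. OAS1 stood at 11.8, 4.48 and 8.43 CPM in NTC, as against 5.78 and 10.7 CPM in sgJUN#1, with a log2 fold change of -0.07 (SE 0.447). OAS3 had 0.28, OAS2 held 2 to 16 counts and OASL 0 to 4. The median NTC range was 0.57 on the log2 scale over the members and 0.56 over all tested genes. Log2 CPM averaged over the 33 members, after subtraction of the NTC mean, came to 0.01, -0.06 and 0.05 in the NTC libraries and to 0.04 and 0.19 in those of sgJUN#1. Over all tested genes these averages were -0.04, 0.01 and 0.04 in NTC and -0.01 and 0.01 in sgJUN#1. The 33 include SAMD9L, which entered the test through sgJUN#1 alone, so no rise of the list is read from them.

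PARP9 and DTX3L form a complex of an ADP-ribose binding protein and a ubiquitin ligase, and PARP14 is a mono-ADP-ribosyl transferase. PARP14 (chromosome 3, 122399686 to 122449687) had 53.9, 56.2 and 61.9 CPM in NTC and 46.4 and 50.4 CPM in sgJUN#1. The groups did not overlap, but the difference was small (log2 fold change -0.25, SE 0.199, adjusted p-value 0.788 with edgeR). PARP9 had 40.4, 37.4 and 30.6 CPM in NTC and 38.0 and 37.2 CPM in sgJUN#1, with a log2 fold change of 0.06 (SE 0.221). DTX3L, whose first exons overlap those of PARP9 on the other strand, also had 0.06.

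BST2 (tetherin) holds budding virions at the cell surface. It stood at 25.3, 19.9 and 16.4 CPM in NTC, as against 11.97 and 14.0 CPM in sgJUN#1. Both sgJUN#1 libraries were the lowest, and the log2 fold change was -0.67 (SE 0.287, 95% interval -1.31 to -0.03, adjusted p-value 0.576 with edgeR). LGALS3BP, a secreted galectin ligand, had 13.2, 8.95 and 17.1 CPM in NTC and 7.84 and 8.23 CPM in sgJUN#1, with a log2 fold change of -0.73 (SE 0.344, adjusted p-value 0.624 with edgeR). NTC replicate 2 lay only just above the sgJUN#1 libraries.

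The IFI genes went both ways. IFI44L, thought to limit the response, was the most abundant with 30.8, 41.5 and 58.3 CPM in NTC and 33.8 and 36.1 CPM in sgJUN#1, with a log2 fold change of -0.32 (SE 0.282) that was -0.04 without NTC replicate 3. IFI27, a mitochondrial protein, had 1.38, 3.26 and 2.22 CPM in NTC and 5.57 and 2.15 CPM in sgJUN#1. Its log2 fold change of 0.87 (SE 0.559) rested on sgJUN#1 replicate 1, without which it was -0.042. IFI6, IFI35 and IFI44 had 0.52, -0.17 and -0.54. IFI6 reached 26.8 CPM in sgJUN#1 replicate 2 and 10.5 CPM in replicate 1. TRIM22 had a log2 fold change of 0.63, with 8.14 to 10.6 CPM in NTC and 11.1 and 20.0 CPM in sgJUN#1.

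The 10 members that were not tested were OAS2, OASL, MX1, MX2, ISG15, IRF7, RSAD2, CMPK2, XAF1 and EPSTI1. MX1 and MX2 encode GTPases that trap viral nucleocapsids, and RSAD2 and CMPK2 act together to make a chain-terminating nucleotide. MX1 held 2, 1 and 2 counts in NTC and 4 and 3 in sgJUN#1. RSAD2 held 1, 0 and 1 counts in NTC and 0 in both sgJUN#1 libraries, and XAF1 0 or 1 in each library. RSAD2, XAF1 and CMPK2 stayed at or under the floor of 3 counts throughout. OASL and MX1 were higher and OAS2 and EPSTI1 lower in both sgJUN#1 libraries than in any of NTC, at 0 to 16 counts per library. Over all tested genes 25.0% did not overlap, and the share over untested genes was not computed, so nothing is read from these 4. With no filter all 43 members could be fitted, and 0 had an adjusted p-value under 0.05 with edgeR, the lowest being 0.109.

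**Figure D4:**
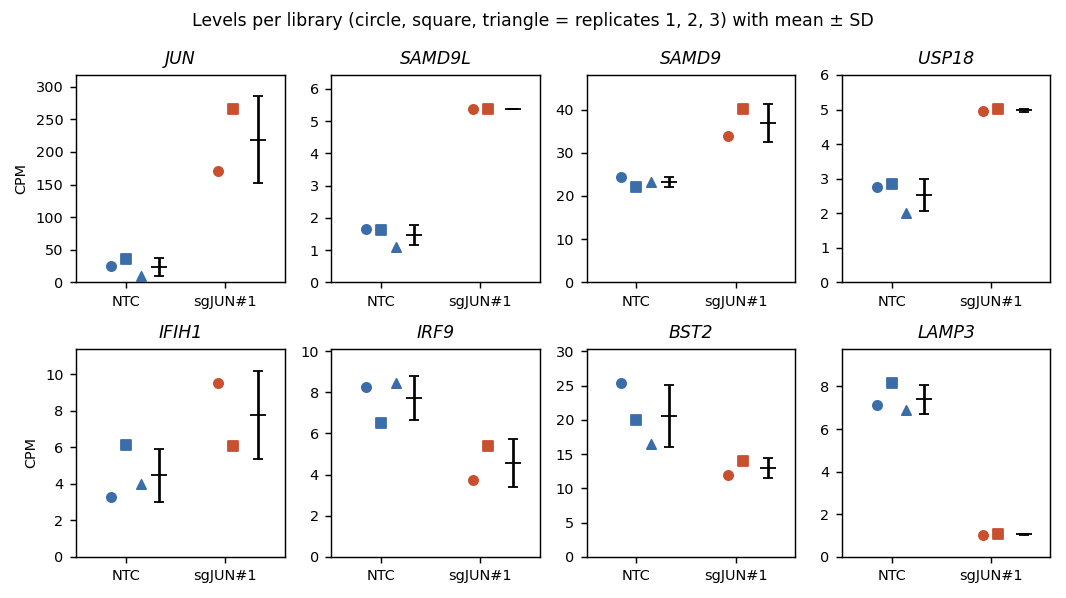
CPM of 8 genes in each library (symbols as labelled) with the mean ± SD of NTC (n = 3) and sgJUN#1 (n = 2), on linear axes that start at 0. JUN, SAMD9L, SAMD9 and USP18 are higher and IRF9, BST2 and LAMP3 lower in both sgJUN#1 libraries, while the groups overlap for IFIH1.

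The rest of the pathway was read from a list of 56 further genes, of which 39 were tested. Of these 0 passed the edgeR threshold, where 0.206% of all tested genes did. Without adjustment 3 had a p-value under 0.05 with edgeR (7.69%), near the 8.38% of all tested genes. Among the 3 were SP110, higher in sgJUN#1, and LAMP3, lower. Of the 9 interferon ligands none was tested. IFNB1, IFNA1, IFNG and the lambda interferons IFNL1, IFNL2 and IFNL3 had 0 counts in every library, and IFNE, an epithelial interferon, had 3 or 4 counts in each. The ligand-induced chemokine genes CXCL10 and CXCL11 each had 1 count in all libraries together.

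The receptors and their kinases were present. IFNAR1 and IFNAR2, the chains of the type I receptor, had means of 30.01 ± 0.700 and 17.5 ± 3.74 CPM in NTC (SD, n = 3) and of 36.9 ± 4.55 and 18.7 ± 1.91 CPM in sgJUN#1 (SD, n = 2). IFNLR1, the specific chain of the lambda receptor, held 1 to 6 counts. The log2 fold changes of the 5 tested receptor genes ran from -0.09 to 0.29, and those of JAK1, JAK2 and TYK2 from -0.36 to 0.15.

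LAMP3, an interferon-inducible lysosomal membrane protein known from mature dendritic cells, showed the largest difference among the tested genes of both lists. It held 26, 20 and 31 counts in NTC and 5 and 3 in sgJUN#1, or 7.15, 8.14 and 6.88 CPM against 1.03 and 1.07 CPM. The NTC libraries lay close together and far above sgJUN#1. This gave a log2 fold change of -2.77 (SE 0.460, adjusted p-value 0.0700 with edgeR). LAMP3 passed the expression filter only through the NTC libraries, where it was higher. It passed the threshold with DESeq2 (0.0136), without a filter (0.00542), with the replicate number as a block (0.0411) and without NTC replicate 3 (0.0462). It missed the threshold with limma-voom (0.129). With edgeR it also missed it in the main fit, with library size alone (0.0813) and without NTC replicate 1 (0.217) or 2 (0.0881). Without sgJUN#1 replicate 1 or 2 the log2 fold change was -2.73 or -2.79.

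SOCS3, an inhibitor of cytokine receptors, had 8.80, 7.33 and 20.2 CPM in NTC and 5.57 and 6.80 CPM in sgJUN#1 (log2 fold change -1.02, SE 0.470, adjusted p-value 0.615 with edgeR). NTC replicate 3 carried much of that difference, and the value was -0.41 without it. Of the 9 tested sensors and adaptors 8 were below 0 and 1 above, where 49.0% of all tested genes were above 0. Their log2 fold changes ran from -0.49 for TBK1 to 0.52 for IKBKE, with edgeR adjusted p-values of at least 0.703. The groups overlapped in all 9, and 0 had an unadjusted p-value under 0.05.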

How the data were processed

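The libraries were made with the QuantSeq 3 prime kit in its forward version, per the labels. The study's methods for RNA sequencing, which name another library kit, give trimming with Cutadapt, alignment to hg19 with Bowtie2 and counting with countOverlaps, and whether the authors counted these libraries in the same way was not stated. The submitters' processing notes name cutadapt 4.2, Bowtie2 2.3.5.1 and hg19. The authors deposited whole-number counts per gene, without normalization. Annotation, strand handling and molecular identifiers were not given in the sources used here, so that reads of overlapping or near-identical genes may be shared and PCR copies may count as reads.

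Symbols were assigned to 23308 of 23459 Entrez identifiers (99.4%) from RefSeq names. Positions are those of GENCODE version 44 on GRCh37, which corresponds to hg19. Groups and replicate numbers came from the sample titles. Counts were tested with edgeR 4.0.16 in R 4.3.3 (TMM, filterByExpr with a minimum count of 10, robust quasi-likelihood F test, group as the only term), with Benjamini-Hochberg adjustment over 13616 genes and a threshold of 0.05. SE was derived from the log2 fold change and F. CPM used TMM-scaled library sizes, and log2 CPM a prior count of 2. DESeq2 1.42.0, limma 3.58.1 (voom), other filters and scalings, a replicate block and the omission of each library were tried. The code was tested on simulated data.

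Members and lists were chosen with earlier results of these data known. Of the members, the text gives in full those past the threshold, the 10 with the largest absolute log2 fold change, the 5 of highest mean CPM and the 3 of widest NTC range. The pathway list adds genes of the largest changes, of which some that the rule named are not reported here, and JUN checks the labels. Further genes were named after their values were seen.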

Additional observations from a re-analysis of the deposited data

How the results depend on the processing

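In each of 11 alternatives 0 members passed the threshold, with lowest adjusted p-values between 0.109 and 0.667. The members' median was 0.06 on the log2 scale and lay between -0.019 (without NTC replicate 2) and 0.107 when single libraries were omitted. The pathway count of 0 became 1, which was LAMP3, with DESeq2, with no filter, with the replicate block and without NTC replicate 3, and was 0 to 1 across the fits that left out a library. Over all genes 28 passed, against 143 with DESeq2, 148 with no filter, 18 where every library needed 10 counts or more, 103 with the replicate block and 10, 56 and 57 without NTC replicates 1, 2 and 3. The cause was not tested. JUN passed the threshold with DESeq2 (adjusted p-value 4.08e-11), limma-voom (0.0342), the replicate block (1.15e-04) and without NTC replicate 2 (0.0144) or 3 (0.00121), with edgeR in the last 3. With edgeR JUN missed it with no filter (0.218), library size alone (0.0810), 10 counts in every library (0.0696) and without NTC replicate 1 (0.279). Without sgJUN#1 replicate 1 or 2 its log2 fold change was 3.53 or 2.90. Of 182 values of 17 named members under the alternatives, 167 kept their direction and stayed past no threshold, and 15 changed sign. IFITM2 was 0.037 with the replicate block and ran from -0.71 to 0.36 when libraries were left out. IFITM3 was -0.0036 with library size alone, -0.018 with limma-voom and -0.45 to 0.38 when libraries were left out. PARP9 was -0.052 with the block and ran from -0.052 to 0.15, STAT2 from -0.34 to 0.60, OAS1 from -0.53 to 0.35 and IFI27 from -0.042 to 1.33. Where 1 sgJUN#1 library was left out, the lone library was assumed to vary like the others. Replicates 1 and 2 exist for NTC and sgJUN#1 alike, but their differences correlated across genes at only 0.0146, and no pairing was assumed. Counts under about 10 per library limit what could be seen for the least abundant members.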
